A study of Mus musculus with 6 samples.

Results

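Lysyl oxidases and the genes of the elastic fibre were followed in mouse myocardium after an injection of PBS or of STZ. The 9 genes are the lysyl oxidases Lox, Loxl1, Loxl2 and Loxl3, elastin (Eln), fibrillin-1 (Fbn1) and the fibulins Fbln1, Fbln2 and Fbln5. They were chosen by name, and each matched 1 of the 55401 Ensembl identifiers in the files. All mice were male and wild type, with a time label of 8 weeks. The event from which that time runs, the strain and the age were not among the labels. STZ (streptozotocin) is toxic to the beta cells that make insulin, and its injection gave the diabetic group. Each group had 3 libraries of poly(A) RNA. The labels do not tie the libraries to separate animals, so a p-value here covers the spread from library to library alone, and part of that may be technical.

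Lysyl oxidases are secreted copper enzymes that oxidise lysine side chains of collagen and elastin, which then form the covalent cross-links that make both polymers tough and insoluble. Elastin is laid down on microfibrils of fibrillin-1, and fibulins join elastin, microfibrils and cell surfaces. In the heart this matrix comes mainly from fibroblasts and from the smooth muscle of vessels, and elastic fibres are found in arteries, valves, endocardium and epicardium.

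Values are FPKM, the fragments of a gene scaled to its length and to the library's mapped fragments, so levels compare between genes. The FPKM of all genes summed to 586336 and 589719 in PBS replicates 1 and 2 and to between 531384 and 581718 in STZ. The file of PBS replicate 3 ends after 7711 genes (13.9%). It holds 6 of the 9 genes and lacks Loxl1, Loxl2 and Fbln2. The test over all genes therefore used 5 libraries, PBS replicates 1 and 2 against 3 STZ libraries, and the third PBS value stands beside them where the file has it. The number of fragments is not given in the sources used here. In short genes of low level the values piled up at steps of 0.0425 to 0.0525 FPKM × kilobase. Taken as 1 read or 1 fragment, such a step puts Lox at roughly 75 and 77 of them in PBS and 270 to 322 in STZ, an estimate too rough for a counting interval. The cardiac muscle gene Tnnt2 lay between 671 and 1099 FPKM in all 6 libraries.

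One gene of the 9 rose and 1 fell in STZ hearts by limma at an adjusted p under 0.05. Lox rose 3.71-fold in mean FPKM, and Loxl2, its relative with scavenger receptor domains, fell to 0.402 of its PBS level. The other 7 genes did not pass. All 9 met the filter of 1 FPKM in 2 libraries, Lox only through the STZ libraries where it is high, and with no filter 0 of the 9 were called (limma adjusted p = 0.0514 for Lox and 0.0898 for Loxl2). Over the 11556 genes tested, 3.64% were called higher and 2.17% lower. The higher genes were 421 of 672 calls as deposited, 325 of 670 after centring each library on its median and 336 of 669 after quantile normalization, and 464 of 635 after rescaling to TPM. The members' median log2 fold change was -0.27, against 0.06 over all genes tested. Library groups did not overlap for 5 of the 9 genes, and the same held for 47.4% of the genes tested. Lox, Loxl1, Loxl2, Fbn1 and Fbln1 were these 5. Of the 6 members that all 6 files list, 3 (Lox, Fbn1 and Fbln1) had separate groups with the third PBS library included, against 41.9% of the genes tested there.

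**Figure D1:**
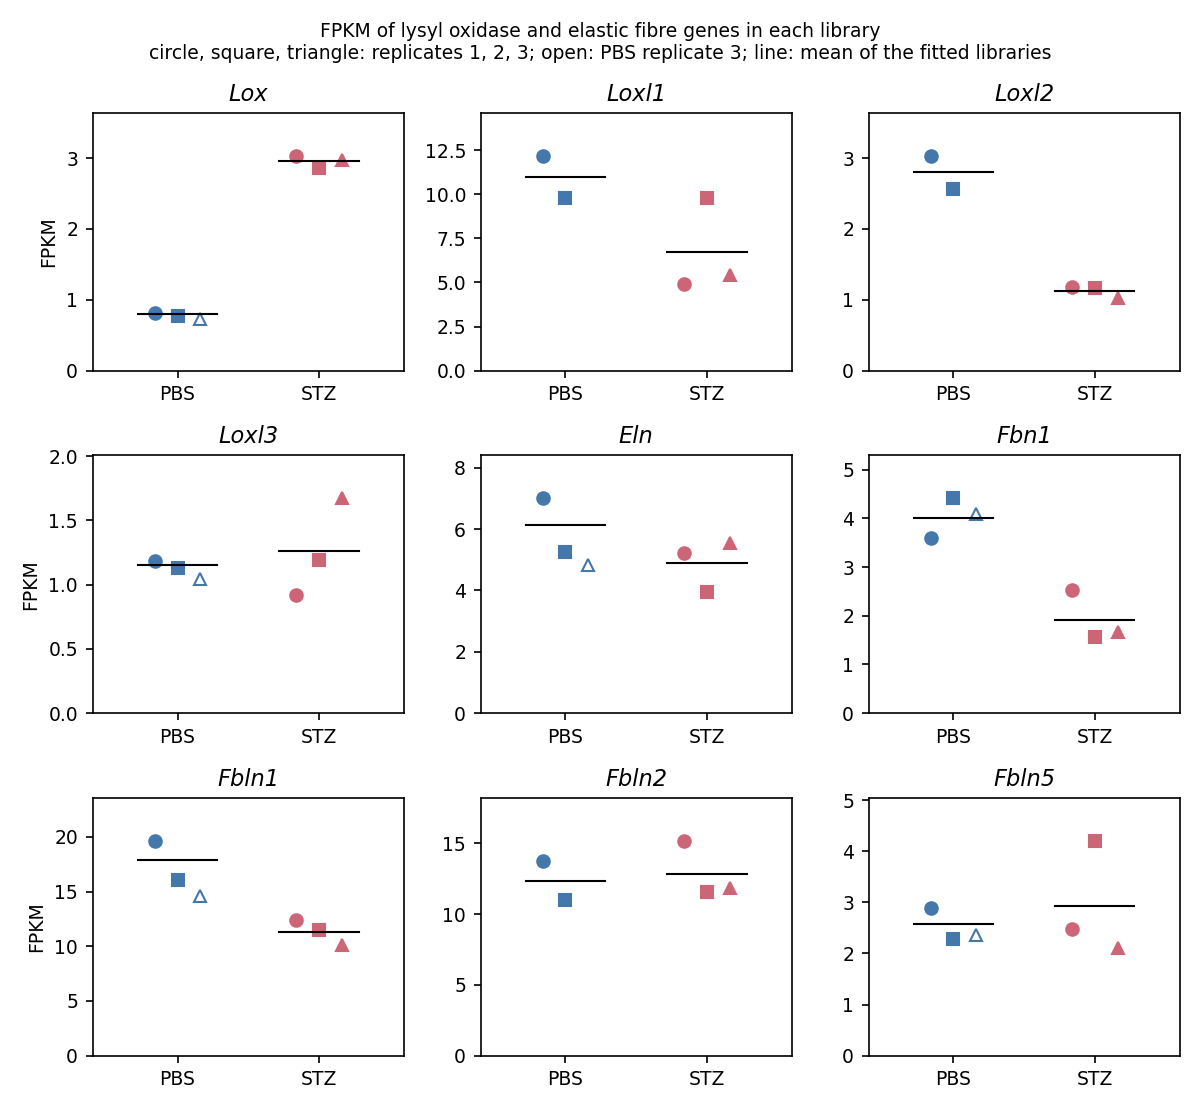
FPKM (vertical axis, from 0) of the 9 genes by group, 1 symbol per library, with a line at the mean of the 5 fitted libraries. Lox lies at 0.73 to 0.82 FPKM in PBS and at 2.86 to 3.03 FPKM in STZ, while Loxl2 lies at 2.57 and 3.03 FPKM in PBS and at 1.03 to 1.18 FPKM in STZ.

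Lox (ENSMUSG00000024529, chromosome 18, 52516067 to 52529867, minus strand, GRCm38) is the founding lysyl oxidase, which cross-links both fibrillar collagen and elastin. It was at 0.82, 0.77 and 0.73 FPKM in PBS replicates 1, 2 and 3, and at 3.03, 2.86 and 2.97 FPKM in STZ replicates 1, 2 and 3. All 3 STZ libraries were higher than all 3 PBS libraries, and the values within a group lay close together. The log2 fold change of FPKM + 1 was 1.14 ± 0.12 (SE, limma adjusted p = 0.00955), and the pseudocount of 1 makes it smaller than the fold of the means. Lox did not pass without PBS replicate 1 (limma adjusted p = 0.097) or without PBS replicate 2 (limma adjusted p = 0.0953), when the PBS group has 1 library that is assumed to vary like the STZ libraries.

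With PBS replicate 3 added where listed, the log2 fold change of Lox was 1.16 (limma adjusted p = 0.00237). That fit called 737 genes higher and 432 lower of 11556. A further fit, chosen after seeing the data, kept only the 4824 genes tested that all 6 files list. There 12.6% were called higher and 7.9% lower, and Lox was at 1.16 ± 0.09 (SE, limma adjusted p = 0.000449). An exact permutation test of 3 against 3 libraries gave a two-sided p of 0.1 for Lox, the smallest that this design can give.

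Loxl2 (ENSMUSG00000034205, chromosome 14, 69609068 to 69695834, plus strand, GRCm38) cross-links collagen, type IV collagen of basement membranes included. It was at 3.03 and 2.57 FPKM in PBS replicates 1 and 2 and at 1.18, 1.17 and 1.03 FPKM in STZ replicates 1, 2 and 3. Both PBS libraries lay above all 3 STZ libraries, and the STZ values were close together. The log2 fold change was -0.84 ± 0.13 (SE, limma adjusted p = 0.0256). The call was lost without PBS replicate 1 (limma adjusted p = 0.219), without PBS replicate 2 (0.14), and without STZ replicate 1, 2 or 3 (0.0507, 0.0501 and 0.0535). Of the exon bases of Loxl2, 5.57% are shared with the opposite-strand gene Gm27177, which was at 0.3 and 1.27 FPKM in PBS and at 0.15 to 0.29 FPKM in STZ. The use of strand in counting is not given in the sources used here, so reads of the pair cannot be told apart in that stretch.

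Loxl1 (ENSMUSG00000032334, chromosome 9, 58287738 to 58313186, minus strand, GRCm38), which is tied to elastin renewal, was the most abundant lysyl oxidase in every library of the fit. It was at 12.17 and 9.78 FPKM in PBS replicates 1 and 2 and at 4.93, 9.76 and 5.45 FPKM in STZ replicates 1, 2 and 3. STZ replicates 1 and 3 lay well below PBS, while STZ replicate 2 at 9.76 FPKM all but met the lower PBS library at 9.78 FPKM. The log2 fold change was -0.68 ± 0.27 (SE) and did not pass (limma adjusted p = 0.179). Without STZ replicate 2 it was -0.95 and passed (limma adjusted p = 0.0487). The 4 haemoglobin genes used as red cell markers summed to 954 FPKM in STZ replicate 2, against 282 to 360 FPKM in the other 4 libraries. The part of blood content in the Loxl1 value was not tested.

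Loxl3 (ENSMUSG00000000693, chromosome 6, 83034173 to 83052562, plus strand, GRCm38) was at 1.18, 1.13 and 1.04 FPKM in the 3 PBS libraries and at 0.92, 1.19 and 1.67 FPKM in the 3 STZ libraries. The groups overlapped, and the log2 fold change was 0.06, with a 95% interval of -0.37 to 0.48 (limma adjusted p = 0.866). The direction turned to -0.01 after centring and after quantile normalization. Loxl3 shares 11.62% of its exon bases with Htra2 on the opposite strand, which was at 3.49 to 5.62 FPKM in the 5 libraries. Loxl4, the remaining gene of the family, lay between 0.04 and 0.23 FPKM in all 6 libraries and was not tested.

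The lysyl oxidase transcripts of a library therefore differed in their make-up. Lox was 4.75% and 5.35% of the summed FPKM of the 5 family genes in PBS replicates 1 and 2, and 29.5%, 19% and 26.6% in STZ replicates 1, 2 and 3. Loxl2 was 17.5% and 17.9% of that sum in PBS, and 11.5%, 7.78% and 9.23% in STZ. Loxl1 was 70.5% and 68% in PBS and 48.1%, 64.9% and 48.8% in STZ. The groups did not overlap in any of these 3 shares. Nor did they in the share of Loxl3, at 6.83% and 7.86% in PBS and 8.97%, 7.92% and 15% in STZ. The sum itself overlapped, at 17.3 and 14.4 FPKM in PBS and 10.3, 15 and 11.2 FPKM in STZ. The ratio of Lox to Loxl2 was 0.285 ± 0.0205 (SD) over the 2 PBS libraries and 2.63 ± 0.226 (SD) over the 3 STZ libraries. Both genes were already called in opposite directions in these libraries, so the separation of the ratio is no further result. An exact permutation test of 2 against 3 libraries gives a two-sided p of 0.2 at best, and each share named and this ratio had that p. A share or ratio within a library does not depend on how the library was scaled, and it shows unequal change of its genes rather than which of them moved.

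**Figure D2:**
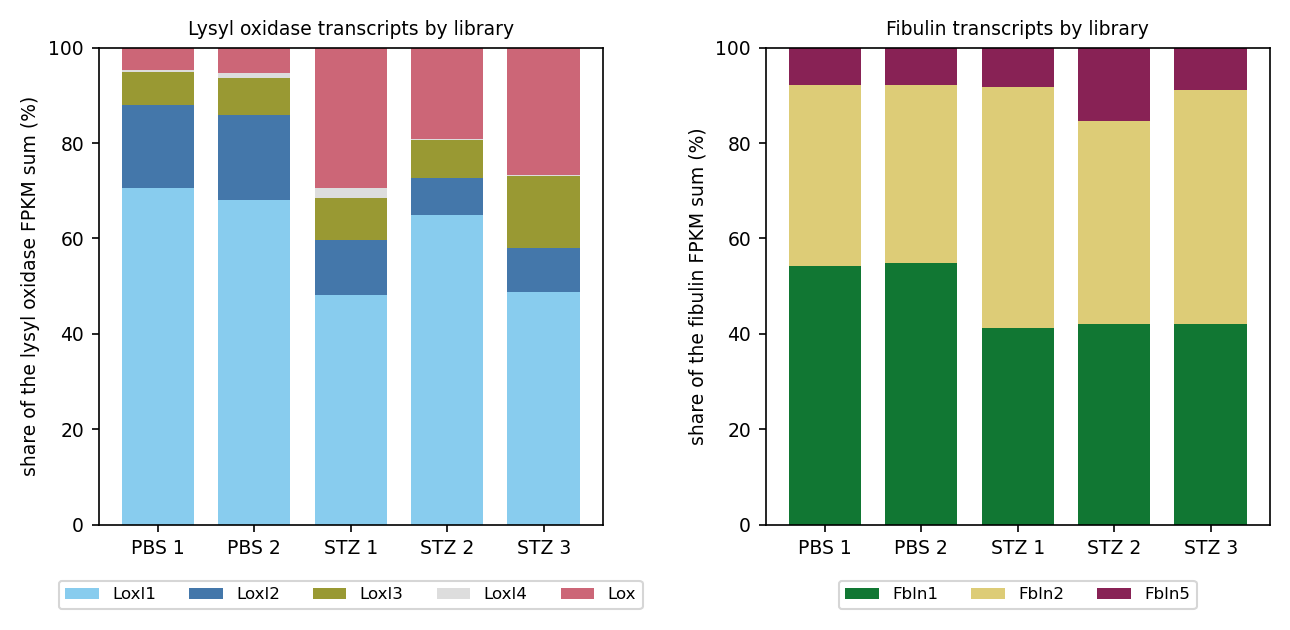
Share (%) of each gene in the summed FPKM of the 5 lysyl oxidases (left) and of 3 fibulins (right), 1 bar per fitted library. The Lox segment is 4.75% and 5.35% in PBS and 19% to 29.5% in STZ, and the Fbln1 segment is 54.2% and 54.8% in PBS and 41.2% to 42.1% in STZ.

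Lysyl oxidases share a catalytic core. Its best-known stretch is rich in histidines that hold the copper ion, and the coding bases of that stretch are shown for the called gene Loxl2 and 3 of its relatives, to let their likeness be read directly. The sequence of Lox is not shown. They are taken 5′ to 3′ on the coding strand from the longest coding transcript of GENCODE M21, with the 4 histidine codons in capitals. In each gene the 33 bases lie on more than 1 exon.
Loxl1: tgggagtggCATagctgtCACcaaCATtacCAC
Loxl2: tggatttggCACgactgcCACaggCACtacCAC
Loxl3: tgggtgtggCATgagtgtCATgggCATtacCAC
Loxl4: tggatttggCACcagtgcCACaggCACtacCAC

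Loxl2 and Loxl4 had 31 of the 33 bases in common, Loxl2 and Loxl3 25, and Loxl1 and Loxl2 22. Over whole transcripts the longest identical run between any 2 of the 5 family genes was 32 bases, and among the 3 fibulins it was 21 bases. Fibrillin-1 shared at most 26 bases with Fbn2, which was at 0.04 to 0.1 FPKM in the 6 libraries. The length of the reads is not given in the sources used here.

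Elastin (Eln, ENSMUSG00000029675, chromosome 5, 134702593 to 134747323, minus strand, GRCm38) is the rubber-like core of the fibre. It was at 7, 5.26 and 4.82 FPKM in PBS replicates 1, 2 and 3 and at 5.21, 3.96 and 5.55 FPKM in STZ replicates 1, 2 and 3. The highest value was in PBS replicate 1 and the lowest in STZ replicate 2, and the groups overlapped. The log2 fold change was -0.27, with a 95% interval of -0.7 to 0.16 (limma adjusted p = 0.379).

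Fbn1 (ENSMUSG00000027204, chromosome 2, 125300594 to 125507993, minus strand, GRCm38) encodes the main protein of microfibrils, which also bind latent TGF-beta complexes. It was at 3.59, 4.41 and 4.1 FPKM in the PBS libraries and at 2.52, 1.56 and 1.67 FPKM in the STZ libraries. All 3 STZ libraries lay below all 3 PBS libraries. In the 5 libraries the log2 fold change was -0.79 ± 0.18 (SE) and did not pass (limma adjusted p = 0.0598). With PBS replicate 3 added where listed it was -0.8 and passed (limma adjusted p = 0.0219). Over the genes of all 6 files alone, where 7.9% were called lower, it was -0.8 ± 0.14 (SE, limma adjusted p = 0.00933). Fbn1 passed in 3 of its 17 alternatives. The exact permutation p for Fbn1 was 0.1, two-sided. Gm9913, on the opposite strand, covers 20.14% of the Fbn1 exon bases and was at 0.05 to 0.11 FPKM in the 5 libraries.

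Fbln1 (ENSMUSG00000006369, chromosome 15, 85205949 to 85286535, plus strand, GRCm38), a fibulin of elastic fibres and basement membranes, was the most abundant of the 9 genes in PBS. It was at 19.62, 16.09 and 14.61 FPKM in the PBS libraries and at 12.37, 11.48 and 10.14 FPKM in the STZ libraries. The groups did not overlap, with PBS replicate 3 nearest to the STZ libraries. The log2 fold change was -0.61 ± 0.15 (SE) and did not pass in 5 libraries (limma adjusted p = 0.0668). With the third PBS library added and all genes kept it was -0.52 and did not pass (limma adjusted p = 0.0545). It passed over the genes of all 6 files alone, at -0.52 ± 0.13 (SE, limma adjusted p = 0.0289), and under a stricter filter of 5 FPKM in 2 libraries (limma adjusted p = 0.0473).

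Fbln2 (ENSMUSG00000064080, chromosome 6, 91212455 to 91272540, plus strand, GRCm38), a fibulin of heart valves and vessel walls, was at 13.71 and 10.97 FPKM in PBS replicates 1 and 2 and at 15.16, 11.58 and 11.82 FPKM in STZ replicates 1, 2 and 3. The groups overlapped, with replicate 1 highest in both, and the log2 fold change was 0.05, with a 95% interval of -0.36 to 0.46 (limma adjusted p = 0.869), turning to -0.02 after centring and -0.01 after quantile normalization. Fbln5 (ENSMUSG00000021186, chromosome 12, 101746565 to 101819055, minus strand, GRCm38) tethers elastin to cell-surface integrins and was at 2.88, 2.29 and 2.36 FPKM in PBS and at 2.47, 4.2 and 2.11 FPKM in STZ. STZ replicate 2, which also had the highest Loxl1 of the STZ libraries and the highest haemoglobin sum, had the highest Fbln5. The log2 fold change of Fbln5 was 0.1, with a 95% interval of -0.48 to 0.67 (limma adjusted p = 0.818), and it was -0.12 without STZ replicate 2.

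**Figure D3:**
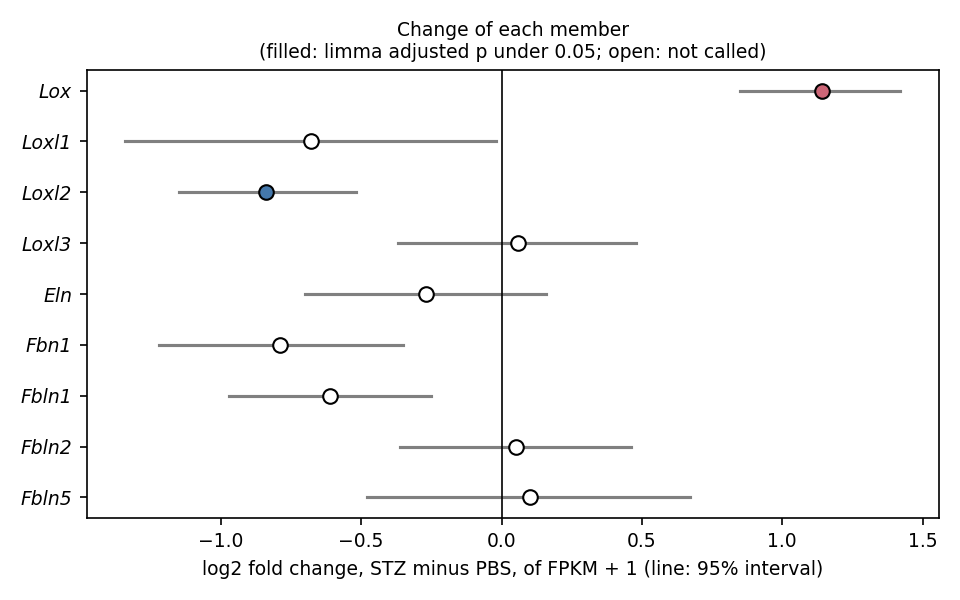
Log2 fold change of FPKM + 1 (horizontal axis, STZ minus PBS, 5 libraries) with its 95% interval from limma for each gene. Lox at 1.14 and Loxl2 at -0.84 are filled as called. The intervals of Loxl1, Fbn1 and Fbln1 lie below 0 but these genes did not pass after adjustment over all genes.

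Within the fibulins, Fbln1 made up 54.2% and 54.8% of their summed FPKM in PBS and 41.2%, 42.1% and 42.1% in STZ. Fbln2 made up 37.9% and 37.4% in PBS and 50.5%, 42.5% and 49.1% in STZ. The ratio of Fbln1 to Fbln2 averaged 1.45 ± 0.0252 (SD, n = 2) for PBS and 0.888 ± 0.0916 (SD, n = 3) for STZ. Fbln1 lay above Fbln2 in both PBS libraries and below it in the STZ libraries. In STZ replicate 2 the genes were nearly equal (ratio 0.991), and the STZ ranges of the pair overlapped. The exact permutation p was 0.2 for both shares and for the ratio, the smallest possible with 2 against 3 libraries.

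The RefSeq table of gene starts (GRCm38.p6) matched 4 of the 9 genes. The fibulin promoters whose windows hold no annotated exon are shown, those of Fbln1, whose share was lower in STZ, and of Fbln5, whose FPKM groups overlapped. Each is the 250 bases before a start, 5′ to 3′ on the gene's strand, with motif matches in capitals. The motifs searched on both strands were the GC box GGGCGG, the TATA box TATAAA, the AP-1 site TGACTCA, the TEAD site GGAATG and the E-boxes CACGTG and CAGCTG. The Fbln1 window is chr15:85205699-85205948 on the plus strand and the Fbln5 window chr12:101819120-101819369 on the minus strand.
Fbln1: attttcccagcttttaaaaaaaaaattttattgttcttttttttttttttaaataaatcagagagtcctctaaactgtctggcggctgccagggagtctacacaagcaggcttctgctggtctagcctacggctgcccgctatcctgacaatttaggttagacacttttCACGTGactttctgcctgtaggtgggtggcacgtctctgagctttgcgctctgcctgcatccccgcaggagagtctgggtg
Fbln5: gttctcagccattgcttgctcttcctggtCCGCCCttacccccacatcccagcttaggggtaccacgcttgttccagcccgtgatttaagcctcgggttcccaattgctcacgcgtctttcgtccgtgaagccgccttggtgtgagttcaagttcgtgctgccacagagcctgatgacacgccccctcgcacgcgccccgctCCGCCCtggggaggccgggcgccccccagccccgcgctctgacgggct

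The Fbln1 window had 46.4% G and C and 7 CpG, and the Fbln5 window 65.2% and 21 CpG, where the median of 32841 promoters was 52.4% and 6 CpG. The Fbln1 window held 1 CACGTG and the Fbln5 window 2 GC boxes. Each gene has another listed start, not shown because its window holds an annotated exon. There the order was the other way, with 62.4% G and C and 14 CpG for Fbln1 and 49.6% and 6 CpG for Fbln5. That Fbln1 window held 1 GC box, 1 CACGTG and 1 CAGCTG, and that Fbln5 window none of the motifs. Of all promoters 6.02% held CACGTG, 32.7% a GC box, 12.4% TATAAA, 4.46% the AP-1 site, 12.6% the TEAD site and 13% CAGCTG. These matches describe the letters of the windows only.

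In order of level in PBS, Fbln1 stood first at 17.9 FPKM, followed by Fbln2 at 12.3, Loxl1 at 11, Eln at 6.13, Fbn1 at 4, Loxl2 at 2.8, Fbln5 at 2.58, Loxl3 at 1.15 and Lox at 0.795 FPKM. The ranges of Fbln2 and Loxl1 overlapped, as did those of Loxl2 and Fbln5. In STZ, Lox moved from the last place to the fifth at 2.95 FPKM, and Loxl2 took the last place at 1.13 FPKM. The STZ ranges of neighbours overlapped except between Fbln1 and Loxl1 and between Eln and Lox. The 9 genes together summed to 64 and 53.3 FPKM in PBS and to 47.8, 47.8 and 42.4 FPKM in STZ.

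Fibrillar collagens are main substrates of lysyl oxidases. Of 6 such genes, 4 were called lower in STZ hearts and 0 higher, against 2.17% lower and 3.64% higher over all genes tested. Like the other lists, this one was drawn up with earlier results of these data in view. The median for the 6 genes was -0.98 in log2. The 4 called lower were Col3a1, Col1a1, Col5a3 and Col1a2. Col3a1 was at 19.4, 17.25 and 14.71 FPKM in the PBS libraries and at 2.46, 1.7 and 1.94 FPKM in the STZ libraries (log2 fold change -2.68, limma adjusted p = 0.00175). Col1a1 was at 14.74, 11.21 and 11.19 FPKM in PBS and at 3.79, 3.32 and 3.03 FPKM in STZ (log2 fold change -1.67, limma adjusted p = 0.00806). For both genes every STZ value was far below every PBS value. Col1a2 was at 8.88, 7.3 and 7.16 FPKM in PBS and at 4.31, 3.42 and 3.65 FPKM in STZ (log2 fold change -0.92, limma adjusted p = 0.0259), and Col5a3 had a log2 fold change of -1.04 (limma adjusted p = 0.0324). Col5a1 at -0.64 and Col5a2 at -0.5 did not pass (limma adjusted p = 0.0621 and 0.116). The ratio of Lox to Col1a1 averaged 0.0622 ± 0.00923 (SD, n = 2) for PBS and 0.88 ± 0.0918 (SD, n = 3) for STZ. Against Col3a1 the ratio was 0.0435 ± 0.00168 in PBS and 1.48 ± 0.229 in STZ. Loxl2 to Col1a1 was 0.217 ± 0.0168 in PBS and 0.335 ± 0.0211 in STZ. PBS replicate 3 is not part of these ratios. Lox was already called higher, and Col1a1 and Col3a1 lower, in these libraries, so the separation of their ratios is no further result. The exact permutation p was 0.2 for each of these ratios, the smallest possible with 2 against 3 libraries.

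**Figure D4:**
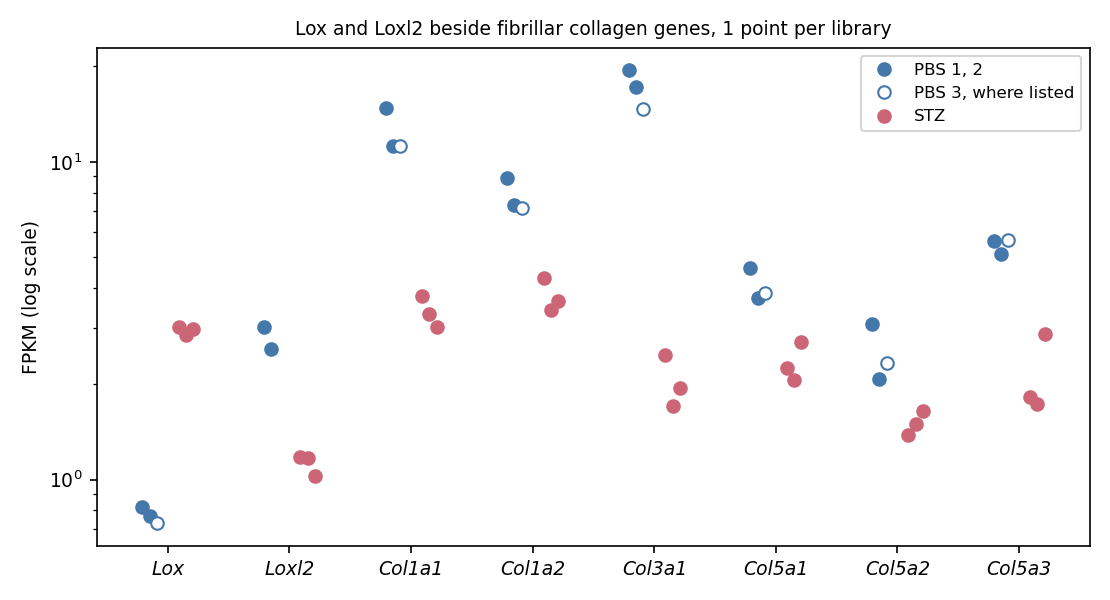
FPKM on a log axis of Lox, Loxl2 and 6 fibrillar collagen genes, 1 point per library (PBS blue, STZ red, PBS replicate 3 open where listed). Lox lies higher in STZ. Loxl2 and all 6 collagen genes lie lower in every STZ library than in any PBS library shown. Groups did not overlap for 47.4% of the genes tested in 5 libraries and for 41.9% of those that all 6 files list. Col3a1 goes from 14.71 to 19.4 FPKM in PBS to 1.7 to 2.46 FPKM in STZ.

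Of 21 further genes of microfibrils and elastic fibre assembly 16 were tested, of which 1 rose and 1 fell, with a median of -0.17. Ltbp4, a latent TGF-beta binding protein needed for elastic fibre assembly, was at 47.86 and 40.71 FPKM in PBS and at 27.39, 22.5 and 22.46 FPKM in STZ (log2 fold change -0.85, limma adjusted p = 0.0323). Adamtsl4, a microfibril-associated ADAMTS-like protein, was at 8.28, 8.55 and 7.97 FPKM in PBS and at 17.14, 12.42 and 15.3 FPKM in STZ (log2 fold change 0.75, limma adjusted p = 0.0491). Fibulin-4 (Efemp2), which brings Lox to elastin, had a log2 fold change of -0.02 (limma adjusted p = 0.935). Ltbp2 was not tested for its low level, with 0.63, 0.43 and 0.19 FPKM in PBS and 0.11, 0.12 and 0.08 FPKM in STZ. These values do not overlap, as was so for 41.9% of the tested genes that all 6 files list.

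None of the 6 tested genes, of 9 listed, that mature lysyl oxidases or supply their copper passed, and their median was -0.13. The smallest p were those of Pcolce, a helper of the protease Bmp1, at 9.81, 8.17 and 8.47 FPKM in PBS and 5.45, 5.96 and 6.09 FPKM in STZ (limma adjusted p = 0.0665), and of Pcolce2 (log2 fold change 0.43, limma adjusted p = 0.125). Bmp1, which cleaves the propeptide of Lox, had a log2 fold change of -0.14 (limma adjusted p = 0.678), and Atp7a, the copper pump of the secretory pathway, lay at 0.16 to 0.48 FPKM and was not tested.

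Of 8 elastin-degrading enzymes 4 were tested and 0 passed, with a median of 0.06, Mmp2 (log2 fold change -0.35, limma adjusted p = 0.205) and Ctsl (0.25, limma adjusted p = 0.314) having the smallest p. Mmp9, a gelatinase below the filter, was at 0.34, 0.26 and 0.36 FPKM in PBS and 0.5, 0.64 and 0.41 FPKM in STZ. Its groups did not overlap, a state shared by 41.9% of the tested genes that all 6 files list. Elastase of neutrophils (Elane) was listed at 0 in all 6 libraries. Of 8 matrix partners of fibulins 5 were tested and 0 passed, with a median of -0.17, and Hspg2 (-0.3, limma adjusted p = 0.162) and Lamb1 (-0.21, limma adjusted p = 0.316) had the smallest p. Versican (Vcan), a proteoglycan bound by fibulins, was too low to be tested, with 0.89, 0.86 and 0.88 FPKM in PBS and 0.37, 0.31 and 0.27 FPKM in STZ.

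In bulk tissue, fewer cells of a type and less RNA per cell cannot be told apart. Of 6 fibroblast markers 0 passed, their median log2 fold change was 0.14, and their summed FPKM was 422 to 453 in PBS and 426 to 477 in STZ. Pdgfra and Tcf21, which define the cardiac fibroblast, had log2 fold changes of 0.37 (limma adjusted p = 0.15) and 0.25 (limma adjusted p = 0.306). Dcn stood at 0.38 (limma adjusted p = 0.115) and Gsn at 0.02 (0.928), while Dpt stood at -0.61 (0.0538) and Lum at -0.26 (0.525), so the markers differed in sign. Set against the mean log2 level of these 6 markers in each library, Lox was higher in STZ by 1.11 and Loxl2 stood at -0.86, Fbn1 at -0.81, Loxl1 at -0.7, Fbln1 at -0.63 and Eln at -0.3. Loxl3, Fbln2 and Fbln5 differed by 0.03, 0.03 and 0.08. Against Pdgfra and Tcf21 alone, a reference that itself lay higher in STZ and so lowers all 9 values, Lox differed by 0.83. The other 8 genes had negative values, from -0.21 for Fbln5 to -1.15 for Loxl2. All of these are differences of log2(FPKM + 1), and the pseudocount of 1 shrinks the changes of low genes such as Lox the most.

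**Figure D5:**
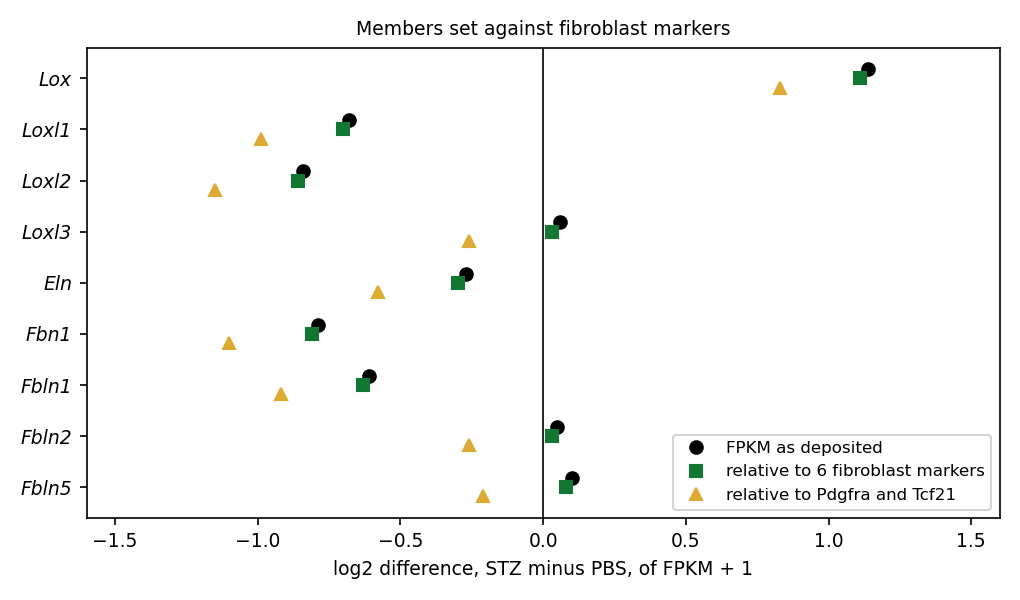
Log2 difference of FPKM + 1 between the group means (STZ minus PBS, 5 libraries) for each gene, as deposited (circles), relative to 6 fibroblast markers (squares) and relative to Pdgfra and Tcf21 (triangles). Lox stays at 0.83 to 1.14, and Loxl3, Fbln2 and Fbln5 change sign with the reference.

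Of 6 smooth muscle markers, 5 tested, Acta2 fell (59.72 and 42.79 FPKM in PBS, 20.82, 21.85 and 23.61 FPKM in STZ, limma adjusted p = 0.0221) and Myh11, which defines the cell type, had a log2 fold change of -0.23 (limma adjusted p = 0.526). The list's summed FPKM, mostly desmin that cardiac muscle also makes, was 490 to 525 in PBS and 516 to 604 in STZ. None of 4 pericyte markers passed, with sums of 136 to 138 FPKM in PBS and 130 to 171 FPKM in STZ. None of 5 endothelial markers passed, at 103 to 106 FPKM in PBS and 108 to 131 FPKM in STZ. None of 3 endocardial markers passed either, at 14.1 to 15.8 FPKM in PBS and 14.8 to 24.9 FPKM in STZ. These markers differed in sign. Npr3 had a log2 fold change of 0.79 (limma adjusted p = 0.0769), Plvap of 0.58 (0.14) and Cytl1 of -0.4 (0.453). Of 5 macrophage markers 0 passed, at 60.5 to 66.7 FPKM in PBS and 46.8 to 63 FPKM in STZ. The 3 tested neutrophil markers of 4 rose, of which Retnlg, at 0 to 0.46 FPKM in PBS and 5.69 to 7.21 FPKM in STZ, met the filter only through the STZ libraries, and the list went from 3.32 to 7.62 FPKM in PBS to 41 to 57 FPKM in STZ. The part of these cells in the results for the 9 genes was not tested.

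Atrial tissue was uneven within both groups. The 4 atrial markers summed to 332 and 51.4 FPKM in PBS replicates 1 and 2 and to 442, 85.5 and 0.49 FPKM in STZ replicates 1, 2 and 3, with Sln at 0 in STZ replicate 3. Myl7, listed in all 6 files, was at 262.36, 37.86 and 0.21 FPKM in PBS replicates 1, 2 and 3 and at 357.43, 73.69 and 0.28 FPKM in STZ replicates 1, 2 and 3, the same order of replicate numbers in both groups. The part of atrial tissue in the results for the 9 genes was not tested. The 4 epicardial and mesothelial markers summed to 0.69 to 1.58 FPKM in PBS and 0.77 to 3.24 FPKM in STZ, highest in replicate 1 of each group, and none was tested. The 4 adipocyte markers summed to 2.15 to 4.09 FPKM in PBS and 0.2 to 1.59 FPKM in STZ, most of it Cfd in each library, while Lep was listed at 0 in the 5 libraries.

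The genes most like the 2 called members were sought among 9804 tested protein-coding genes by the Euclidean distance between log2 values of FPKM + 1, each centred on its own mean over the 5 libraries. Among the nearest to Lox were Efhd2 (distance 0.117) and the carbonic anhydrase Car14 (0.123). Car14 was at 42.47 and 41.08 FPKM in PBS and at 97.12, 83.93 and 96.13 FPKM in STZ. Nearest to Loxl2 were Mdga1 (0.082), the proprotein convertase Pcsk6 (0.093) and the DNA repair enzyme Ung (0.122). Mdga1 was at 1.25 and 1.02 FPKM in PBS and at 0.21, 0.14 and 0.12 FPKM in STZ. It met the filter only through the PBS libraries, where it is high. Pcsk6 was at 12.41 and 11.73 FPKM in PBS and at 6.69, 6.26 and 5.83 FPKM in STZ. With 5 libraries, many genes whose log2 of FPKM + 1 differs between the groups by a like amount come close by this measure. The pseudocount of 1 shrinks differences at low levels, so genes that come close can differ in their fold of FPKM.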

How the data were processed

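The deposited files give FPKM per Ensembl gene, 1 file per library, to 2 decimals, per the file headers. The tools named are HISAT2 2.0.4, StringTie 1.3.4d and cutadapt 1.9, and the build is GRCm38, per the submitters' processing notes. Neither strand setting nor annotation release is given in the sources used here. Second strands were marked with dUTP, per the labels' protocols. Symbols, positions and exons came from GENCODE M21 of the same build.

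Genes that reached 1 FPKM in 2 or more of 5 libraries entered the test, run on log2(FPKM + 1) by limma 3.58.1 in R 4.3.3 (eBayes with trend, two-sided, Benjamini-Hochberg over all genes tested, threshold 0.05). A file listing under 50% of the genes was left out. The test was tested on simulated data. The changed genes there were set at higher levels than Lox and Loxl2, so it does not speak to calls at their level. Members, lists and tests were chosen with earlier results of these data known. The genes named are the 9 members, list genes past the threshold or the 2 of smallest p, the 3 genes most like each called member (1 is not reported here), and markers. Efemp2, Bmp1, Atp7a, Ltbp2, Mmp9 and Vcan were picked with their values in view. Exact permutation tests used scipy 1.17.1. Alternatives changed 1 choice at a time: pseudocount, filter, scaling, moderation, threshold, replicate block and libraries. A further alternative, chosen after seeing the data, changed libraries and genes together: all 6 libraries, with only the genes that all 6 files list.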

Additional observations from a re-analysis of the deposited data

How the results depend on the processing

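Of the 672 genes called, the count was 81 with no filter, 64 with the replicate number as a block, 1642 at a threshold of 0.1, 1169 with PBS replicate 3 added where listed, and 24 to 398 with 1 library left out. Of the 9 genes 2 were called, and this count was 0 with no filter, 0 with the replicate block, 1 with a filter of 5 FPKM (Fbln1, since Lox and Loxl2 were then not tested), 4 at a threshold of 0.1 (with Fbn1 and Fbln1) and 0 to 2 with 1 library left out. With the block, Lox had a limma adjusted p of 0.0651 and Loxl2 of 0.0942. Deviations of same-numbered libraries correlated at 0.176, -0.05 and 0.15 for replicates 1, 2 and 3 over 4811 genes. The values of replicates 1 and 3 were the highest of all pairs, while PBS replicate 2 correlated best with STZ replicate 3 (0.093). The atrial gene Myl7 also ran in the same order of numbers in both groups. Whether the numbers pair the libraries is not settled by these values, and the main fit did not use the numbers.

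Lox was higher in all 17 alternatives (log2 fold change 1.07 to 1.77, adjusted p 0.000449, with only the genes of all 6 files, to 0.097), and Loxl2 lower in all 16 (-1.24 to -0.75, adjusted p 0.0174 to 0.219). Lox passed in 13 of its 17 and Loxl2 in 9 of its 16. The lowest adjusted p of Loxl2 came with PBS replicate 3 added where listed, although Loxl2 has no value in that library. Loxl1, Fbn1, Fbln1 and Eln kept a negative sign in all of their alternatives. Loxl3 turned to -0.01 with centring and with quantile normalization, and to -0.07 with the block and without STZ replicate 3. Fbln2 turned to -0.02 with centring, -0.01 with quantile normalization, -0.1 without PBS replicate 2 and -0.06 without STZ replicate 1. Fbln5 turned to -0.02 without PBS replicate 2 and -0.12 without STZ replicate 2. With 1 library left out the ranges were -0.07 to 0.17 for Loxl3, -0.1 to 0.2 for Fbln2 and -0.12 to 0.25 for Fbln5. The cause was not tested. Relative to Pdgfra and Tcf21 alone the values were 0.83 for Lox, -1.15 for Loxl2, -0.26 for Loxl3, -0.58 for Eln, -1.1 for Fbn1, -0.92 for Fbln1 and -0.26 for Fbln2. Relative to 6 fibroblast markers Lox was 1.07 to 1.16 with 1 library left out. The share differences of Lox and of the 3 fibulins kept their sign with each library left out. Low values, such as those of Loxl4, Ltbp2 and Vcan, were below the filter.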
